A study of Mus musculus with 9 samples.

Results

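CX3CR1-GFP cells and CCR2-RFP cells are the 2 phagocyte populations of the mouse peritoneal wall that stained for MHC class II in this study, and their RNA was compared directly. The libraries were chosen by the table columns headed CX3CR1_GFP (3 libraries) and CCR2_RFP (3 libraries), 6 of the 9 in the series. All cells came from Cx3cr1gfp/+ Ccr2rfp/+ mice, the F1 of the 2 reporter strains, so every group was heterozygous at both receptor loci. Each mouse was injected in a vein with 50 µg of Dextran-Cascade Blue the day before and perfused with PBS. The peritoneal wall was then digested with Liberase TL for 20 minutes at 37 °C, with the caspase inhibitor Z-VAD-FMK at 25 µM in the buffer. CD11b-positive, Ly6G-negative cells were sorted into TRIzol. CX3CR1-GFP cells were MHCII+ Ccr2- Cx3cr1+, made up 0.5 to 1.5% of that gate, and are described in the labels as sessile resident tissue macrophages. CCR2-RFP cells were MHCII+ Ccr2+ Cx3cr1-, made up 10 to 15%, and are described as migratory tissue monocytes. The remaining 3 libraries hold double-negative cells (Dextran+ MHCII- Ccr2- Cx3cr1-, 85 to 90%), described as the majority of the sessile macrophages, and they serve here as a point of reference. The sorts carry the labels 1, 2A and 2B and each gave 1 library of each population. Per-library values below are in that order.

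CX3CR1 is the receptor for fractalkine and is kept by many macrophages that live in a tissue for long periods. CCR2 is the receptor through which monocytes leave the marrow and enter tissues, and cells that have recently entered from blood usually still carry it. Cells of both kinds can carry MHC class II, the pair of chains that shows peptides from the endosome to CD4 T cells. The peptide is put in place by H2-DM, after the invariant chain (Cd74) has been trimmed by cathepsins, and the genes of this route are driven by the coactivator CIITA through a shared pair of promoter boxes called X and Y.

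Promoter sequence of 4 MHC class II genes is shown first, because these genes were all lower in CX3CR1-GFP than in CCR2-RFP cells, by log2 differences from -1.50 to -4.35. The sequences are from RefSeq on GRCm38.p6, on the strand of each gene and 5′ to 3′, and each run of 85 bases lies within the window from 250 bases before to 50 bases after the annotated start. They are H2-Aa at chr17:34287847-34287931 (minus strand), H2-Eb1 at chr17:34305748-34305832, H2-DMb1 at chr17:34153070-34153154 and H2-DMb2 at chr17:34145099-34145183 (all plus strand). Capitals mark AACNGATG, an X-type motif, and ATTGG, the inverted CCAAT motif of the Y box.
H2-Aa: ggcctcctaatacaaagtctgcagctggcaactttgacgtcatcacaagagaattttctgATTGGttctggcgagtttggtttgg
H2-Eb1: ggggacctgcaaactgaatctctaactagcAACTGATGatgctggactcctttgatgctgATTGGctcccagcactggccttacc
H2-DMb1: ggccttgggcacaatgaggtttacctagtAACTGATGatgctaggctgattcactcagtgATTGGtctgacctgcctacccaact
H2-DMb2: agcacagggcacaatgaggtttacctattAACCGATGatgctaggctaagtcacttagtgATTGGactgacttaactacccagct

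Both motifs were found in this order in H2-Eb1 (22 bases between them), H2-DMb1 (23 bases) and H2-DMb2 (23 bases), and in H2-Aa ATTGG was found and AACNGATG was not. The windows of H2-DMa, H2-Oa and H2-Ob held no such pair. H2-DMa, also lower in CX3CR1-GFP cells, has 2 windows, of which neither held AACNGATG and 1 held ATTGG. The windows of H2-Oa and H2-Ob held ATTGG alone. No window was available for H2-Ab1. Both strands were searched, and the motifs do not overlap each other. The letters of the X-type motif were chosen after these promoters had been read. Of 32851 RefSeq promoter windows of 300 bases, 2.32% held AACNGATG, 37.4% held ATTGG, and 17 windows (0.0517%) held both in this order with at most 40 bases between them. The 17 include H2-Eb1, H2-DMb1 and H2-DMb2, whose sequence was read before the motif was written, and H2-Eb2. Others belong to genes outside MHC class II, such as Sf1 and Slc22a6. The share therefore does not measure how particular the pair is to MHC class II genes. The near-identical boxes of H2-DMb1 and H2-DMb2 stand before genes whose levels differed between the populations by unequal amounts, as given below. A match of letters is a description of the window, and no binding was measured here.

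Expression of the genes used for sorting was compared with the labels before anything else. Ccr2 was 4.29, 5.03 and 6.68 TPM (a relative transcript abundance corrected for transcript length) in CX3CR1-GFP libraries and 95.4, 111 and 115 TPM in CCR2-RFP libraries. The CX3CR1-GFP libraries had 6.51, 16.4 and 4.13 TPM of Cx3cr1, and every CCR2-RFP and double-negative library listed it at 0. Both receptor genes were therefore high in the population named for them, and neither overlapped. GEO's description field names the other reporter population for 6 samples, whereas the title, source name and column heading give the population used here. Itgam, which encodes the CD11b used in the gate, was 11.8, 16.1 and 16.1 TPM in CX3CR1-GFP and 41.1, 50.6 and 49.2 TPM in CCR2-RFP libraries, a log2 difference of -1.62 ± 0.16 (SE). Differences are CX3CR1-GFP minus CCR2-RFP on log2(TPM + 1) throughout, so a negative value is a gene higher in CCR2-RFP cells.

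The table lists 28764 symbols, and depth cannot be given because TPM keeps no read count. The listed TPM summed to 278579 to 301604 in CX3CR1-GFP and 356787 to 382828 in CCR2-RFP libraries (exact permutation test, 2-sided p = 0.1, the smallest that 3 against 3 can give, adjusted p = 0.229 over 16 sums). Siglece, a sialic acid-binding lectin gene and the largest row, was listed at 61107 to 87908 and 103398 to 115600 TPM in the same order. That was 21.9 to 29.1% and 29.0 to 30.2% of the listed TPM. Whether these values are transcripts of the gene could not be settled from TPM alone. A row of this size can change the share left for other genes. Without Siglece and other dominant rows (ribosomal RNA, mitochondrial mRNA and ribosomal protein genes) the sums were 166953 to 175606 and 208254 to 218069 TPM. The sums thus differed in the same direction without those rows. The split of calls by direction is therefore given under other scalings beside the main one. Correlation of log2 levels across genes, which are not replicates, was 0.904 to 0.938 among CX3CR1-GFP libraries, 0.937 to 0.958 among CCR2-RFP libraries and 0.794 to 0.864 between them. In sorted bulk RNA, fewer cells with a transcript and less of it per cell cannot be told apart. Nothing in the labels says more than that 3 mice were sorted, so p-values measure the spread between 3 sorted samples of each population.

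Genes that reached 1 TPM in 3 or more of the 9 libraries were tested. Of these 10136 genes, 2666 (26.3%) differed between the populations (limma, Benjamini-Hochberg adjusted p below 0.05 over all genes). CX3CR1-GFP cells were higher for 908 genes (8.96%) and CCR2-RFP cells for 1758 (17.3%), and the median log2 difference over all genes tested was -0.11. Of 163 tested genes that reached 1 TPM in CCR2-RFP libraries alone, 153 were called lower. Of 27 that reached it in CX3CR1-GFP libraries alone, 23 were called higher. They entered the test through the population where they were high, so the filter set the direction of these calls. Among genes described below these were H2-DMb2, Ltb4r1, P2ry1, P2ry10, Ptger2, Abcg1, Adam8, Adora3, Ccl17, F10, Klrb1c, Mefv and Xcr1 toward CCR2-RFP and Cx3cr1, Mmp13, Olfml3, Vcam1 and Cd79b toward CX3CR1-GFP cells. Other genes reached 1 TPM in too few libraries outside CCR2-RFP to pass without it. Among them were Itgax, Hopx, Mucl1, Areg, Tnip3, Akr1c18, Cd226, Slc16a3 and Cpa3, whose direction is open to the same limit. The values of all these genes, and their place in the counts of the lists below, are given as a description. A difference of at least 2-fold was present in 530 of the higher and 984 of the lower genes. The split depended on scaling. Higher genes were 34.1% of the calls with TPM as deposited and 45.2% (1121 higher, 1358 lower) with median-of-ratios scaling. They were 48.9% (1110 and 1158) with quantile normalization and 57.9% (1437 and 1047) without dominant rows. That last scaling set every gene against a total that left out Siglece, ribosomal RNA, mitochondrial mRNA and ribosomal protein rows. The median over all genes was 0.01, 0.01 and 0.13 under those scalings. No gene called with TPM as deposited was called the other way under another scaling. Of the 908 higher genes 908, 863 and 908 were still called higher with median-of-ratios scaling, quantile normalization and without dominant rows. Of the 1758 lower genes 1358, 1158 and 1047 were still called lower in the same order.

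**Figure D1:**
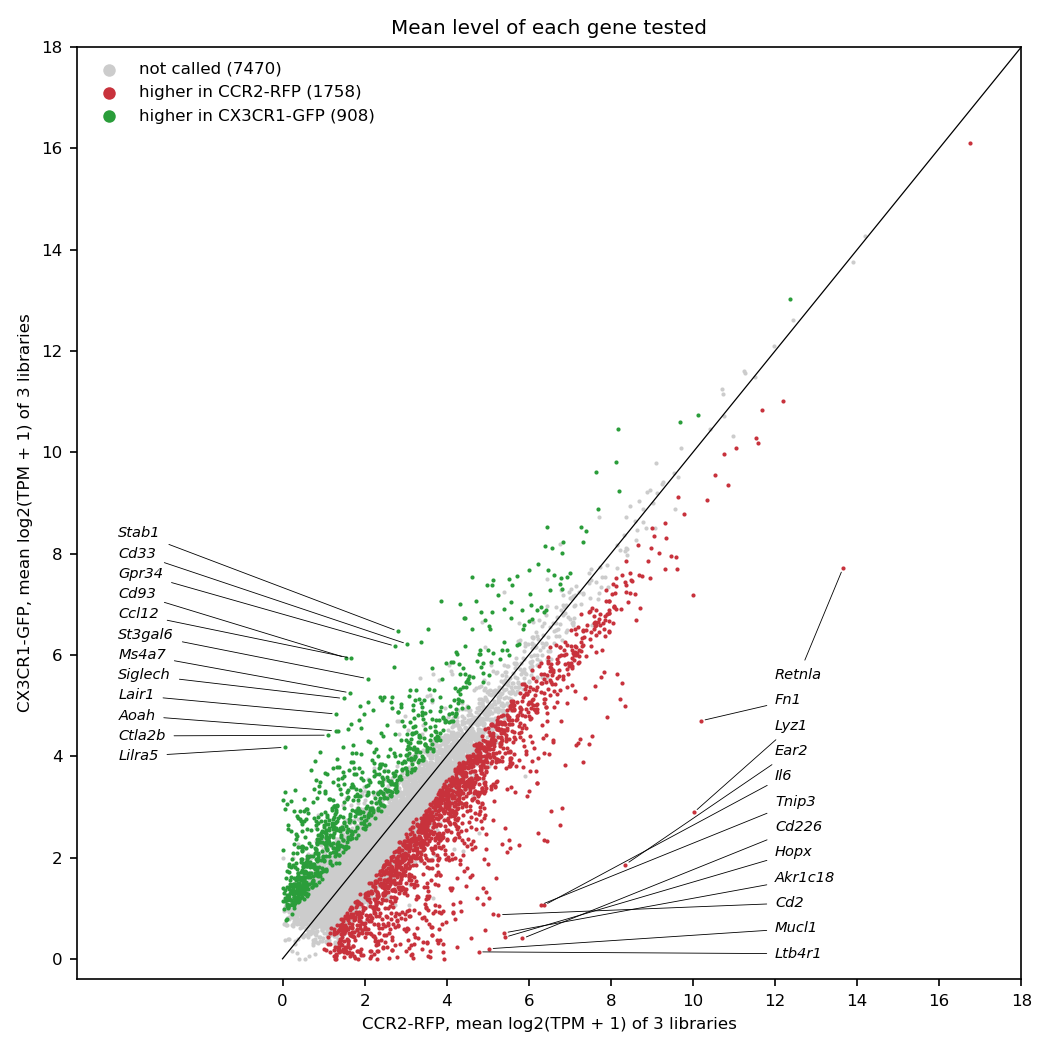
Mean log2(TPM + 1) of each of the 10136 genes tested in the 3 CCR2-RFP libraries (horizontal axis) and the 3 CX3CR1-GFP libraries (vertical axis), with equal levels on the line. Green points are the 908 genes called higher in CX3CR1-GFP cells, red points the 1758 called higher in CCR2-RFP cells, and the labelled genes are the 12 with the largest difference each way.

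**Figure D2:**
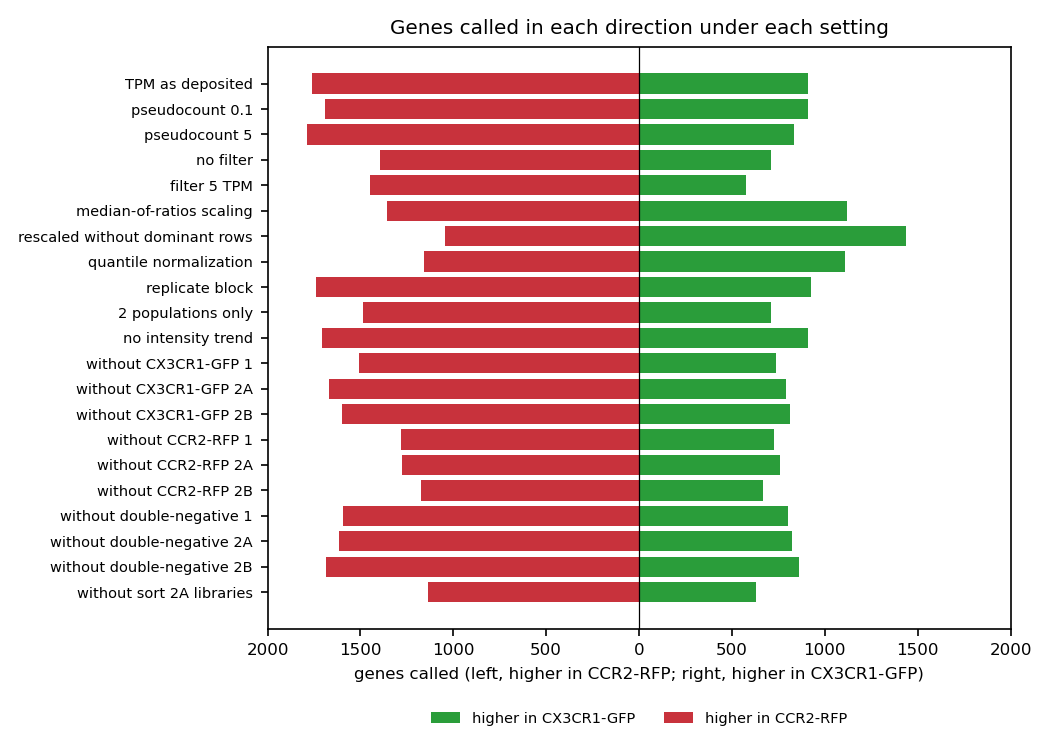
Number of genes called higher in CX3CR1-GFP (green, right) and higher in CCR2-RFP cells (red, left) under each setting. The left bar is the longer with TPM as deposited (1758 against 908) and the right bar is the longer when dominant rows are left out (1437 against 1047).

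The 12 largest differences toward CX3CR1-GFP cells were mostly genes of surface receptors. These and the 12 toward CCR2-RFP cells were picked among called genes whose libraries did not overlap, so their separation follows from the choice. Of all 163 named genes called, 161 had libraries that did not overlap, so separation is not particular to any gene described below. Cd93, a lectin-like receptor of endothelium and myeloid cells (GRCm38 chromosome 2, 148436640 to 148443563, protein-coding), was 61.4, 55.2 and 65.5 TPM in CX3CR1-GFP and 3.97, 0.968 and 1.53 TPM in CCR2-RFP libraries. The lowest CX3CR1-GFP library was far above the highest CCR2-RFP library, and the log2 difference was 4.40 ± 0.34 (adjusted p = 1.4e-05). Lilra5, an activating member of the leukocyte immunoglobulin-like receptors (chromosome 7, 4237754 to 4243463), was 14.9, 22.3 and 15 TPM against 0.111, 0 and 0.0304 TPM, with 2.31, 2.17 and 1.69 TPM in double-negative libraries. It was near 0 in CCR2-RFP cells, and its difference was 4.11 ± 0.21 (adjusted p = 2.57e-06). Ccl12, a CCR2 ligand, was 47.4, 123 and 37.2 TPM against 4.69, 0.274 and 3.54 TPM. The sort 2A library was highest in one population and lowest in the other, and the difference was 4.25 ± 0.55 (adjusted p = 0.000313).

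Stab1, the scavenger receptor stabilin-1, was 84, 87.4 and 91 TPM against 11.5, 3.30 and 5.47 TPM, and the double-negative libraries, at 90.3, 79.9 and 63.4 TPM, lay at the CX3CR1-GFP level. Receptors for collagen and sialic acid stood in this group. Lair1, a collagen receptor, was 30.1, 26 and 26.6 TPM against 1.64, 0.917 and 2.01 TPM. Cd33, which binds sialic acid, was 68.1, 74.1 and 77.6 TPM against 11.8, 5.84 and 5.37 TPM. Siglech, a lectin of microglia and plasmacytoid dendritic cells, was 37.8, 43.1 and 24.6 TPM against 3.35, 1.33 and 1.20 TPM. Lair1, Cd33 and Siglech differed by 3.52, 3.17 and 3.65. Gpr34, a lysophosphatidylserine receptor, was 70.5, 73.1 and 69.5 TPM against 8.45, 6.26 and 3.45 TPM, and Ms4a7, a macrophage membrane protein, 32, 35.9 and 44.4 TPM against 5.17, 1.12 and 1.36 TPM. The remaining 3 were St3gal6, a sialyltransferase (3.45), Aoah, which deacylates lipopolysaccharide (3.21), and Ctla2b (3.30). All 12 stayed called in every alternative setting in which they could be tested.

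The 4 largest differences toward CCR2-RFP cells were in genes of secreted proteins. Lyz1, a lysozyme (chromosome 10, 117287797 to 117292868, protein-coding), was 7.56, 3.24 and 10.3 TPM in CX3CR1-GFP and 1043, 916 and 1179 TPM in CCR2-RFP libraries, a log2 difference of -7.13 ± 0.44 (adjusted p = 4.44e-06). Reads of Lyz1 and its neighbour Lyz2 can be hard to assign, and Lyz2 differed less (-0.97). Retnla, a secreted protein induced by IL-4 and IL-13 (chromosome 16, 48842551 to 48844461), was 200.5, 167 and 269 TPM against 12395, 10766 and 16041 TPM, and 3739.9, 4723 and 4432 TPM in double-negative libraries. It was among the most abundant transcripts of CCR2-RFP cells, and CX3CR1-GFP cells were the lowest of the 3 populations, at a difference of -5.94 ± 0.21 (adjusted p = 5.56e-07). Fn1, fibronectin, was 6.73, 33.2 and 65.3 TPM against 1116, 1058 and 1368 TPM. Its CX3CR1-GFP libraries spread widely and all stayed below the CCR2-RFP libraries (-5.50 ± 0.61, adjusted p = 0.000114). Ear2, an eosinophil-associated ribonuclease of a family of near copies, was 0.438, 2.46 and 8.65 TPM against 273, 285 and 448 TPM, so its value is uncertain where reads are shared.

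Il6, the cytokine interleukin-6, was 2.78, 0.0325 and 1.30 TPM against 68.2, 72.9 and 109 TPM (-5.31 ± 0.41, adjusted p = 1.54e-05), and Tnip3, which restrains NF-kB signalling, was 0.543, 0.651 and 2.60 TPM against 76.4, 78.5 and 76.8 TPM (-5.22 ± 0.48, adjusted p = 3.9e-05). Both were low in every CX3CR1-GFP library. Cd226 and Cd2, adhesion receptors also known from T and NK cells, were 0.738, 0.0495 and 0.264 TPM against 61.1, 51.7 and 57.1 TPM and 0.549, 0.595 and 1.48 TPM against 37.9, 33.5 and 41.1 TPM. Summed markers of T and NK cells were 2.54 to 11.9 TPM in CX3CR1-GFP and 3.26 to 12.6 TPM in CCR2-RFP libraries, which overlapped, and of 3 tested 1 was lower, Klrb1c (-1.04). Ltb4r1, the leukotriene B4 receptor, was 0, 0 and 0.330 TPM against 24.8, 27.3 and 27.2 TPM. The other 3 were Hopx (-4.98), Akr1c18 (-4.88) and Mucl1 (-4.83), each under 2 TPM in all CX3CR1-GFP libraries.

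**Figure D3:**
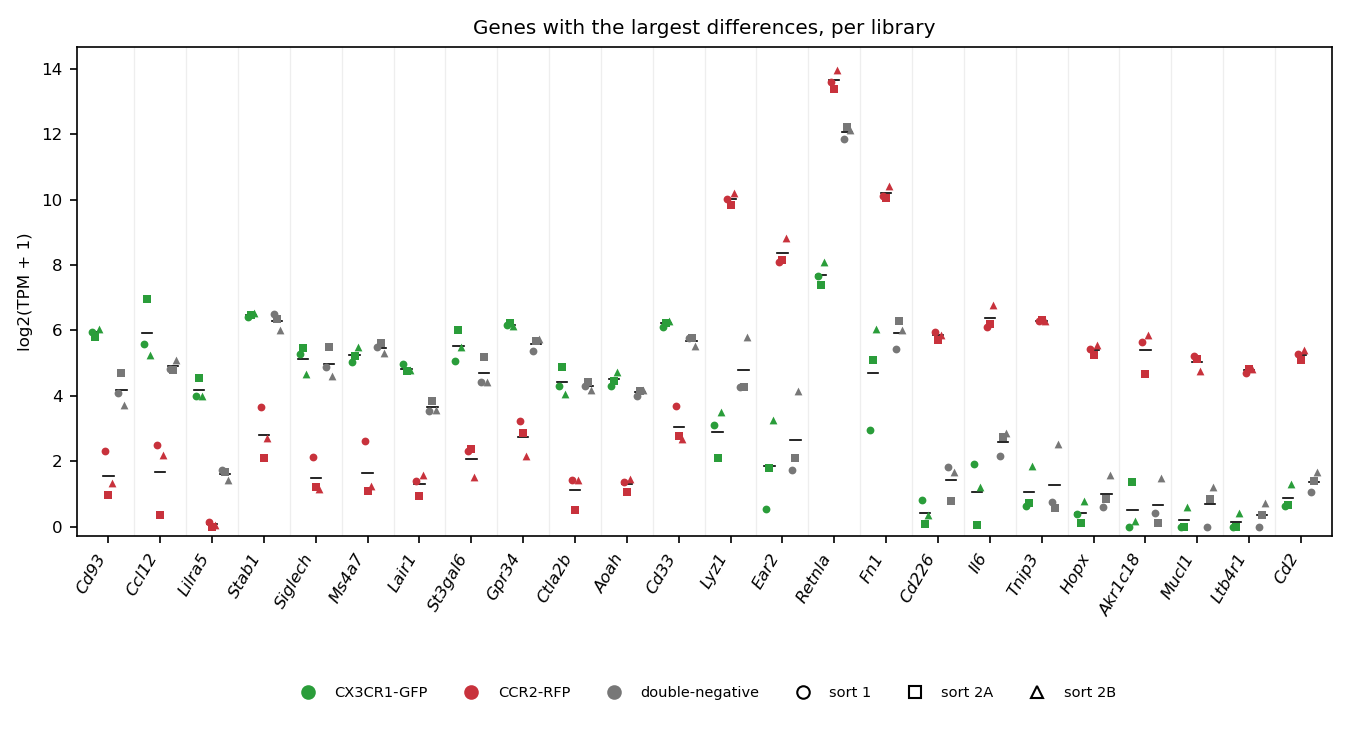
Log2(TPM + 1) of the 12 genes with the largest difference toward CX3CR1-GFP (left) and the 12 toward CCR2-RFP cells (right), per library, with colour for population, marker for sort and a bar at the mean of 3. Genes were chosen so that the green and red points do not overlap, and the grey double-negative points mostly lie near the green ones.

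MHC class II transcripts were higher in CCR2-RFP cells, although both populations were sorted as positive for the protein. H2-Aa, the I-A alpha chain, was 467, 893 and 658 TPM in CX3CR1-GFP and 1682, 1937 and 1904 TPM in CCR2-RFP libraries, and 44.3, 68.7 and 91.7 TPM in double-negative libraries. The log2 difference was -1.50 ± 0.28 (limma adjusted p = 0.00281). H2-Ab1 (-1.62 ± 0.27), H2-Eb1 (-1.52 ± 0.29) and the invariant chain Cd74 (-1.40 ± 0.21) differed by similar amounts. Within CX3CR1-GFP cells the chains were lowest in sort 1 and highest in sort 2A. H2-Ea-ps was listed at 0 in every library.

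The log2 differences of the H2-DM genes were larger, and this contrast between genes was not tested. H2-DMa, the alpha chain of H2-DM, was 33.1, 36.2 and 33.7 TPM against 167, 150.2 and 178 TPM (-2.23 ± 0.15, adjusted p = 6.71e-06). H2-DMb1, the usual beta chain, was 12, 22.5 and 23.1 TPM against 96.4, 89.1 and 101 TPM (-2.31 ± 0.23, adjusted p = 5.68e-05). H2-DMb2, the alternative beta chain, was 0.108, 0.929 and 0.544 TPM against 33.6, 26.3 and 28.9 TPM (-4.35 ± 0.23). CX3CR1-GFP cells thus had H2-DMb2 under 1 TPM in every library, at the double-negative level of 0.268 to 0.472 TPM, while H2-DMb1 was above the double-negative level of 4.81 to 6.20 TPM. H2-DMb2 reached 1 TPM in CCR2-RFP libraries alone, so its direction was set by the filter, and it could not be tested when any of those was left out. H2-DMb1 and H2-DMb2 are similar in sequence, and how the counting divided shared reads is not given in the sources used here. Ciita, the coactivator, was 2.57, 4.41 and 7.58 TPM against 10.7, 15.4 and 12.1 TPM (-1.31 ± 0.31, adjusted p = 0.0112).

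Of 13 loading and regulation genes tested, 2 were higher in CX3CR1-GFP cells, 6 were lower and 5 did not pass (median log2 difference -0.56). The 2 higher were Lgmn, the endosomal protease legumain (1.78 ± 0.15, 154 to 184 against 39.6 to 56.2 TPM), and Cd83, which stabilises surface class II (1.22 ± 0.14). Ctss, the cathepsin that trims the invariant chain (-0.60), and Ifi30, a thiol reductase of the endosome (-0.69), completed the lower genes. The lower count was 5 with median-of-ratios scaling and 4 with quantile normalization or without dominant rows. Rfx5, Rfxap and Rfxank, the X-box binding complex, did not pass (0.23, -0.56 and 0.45).

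**Figure D4:**
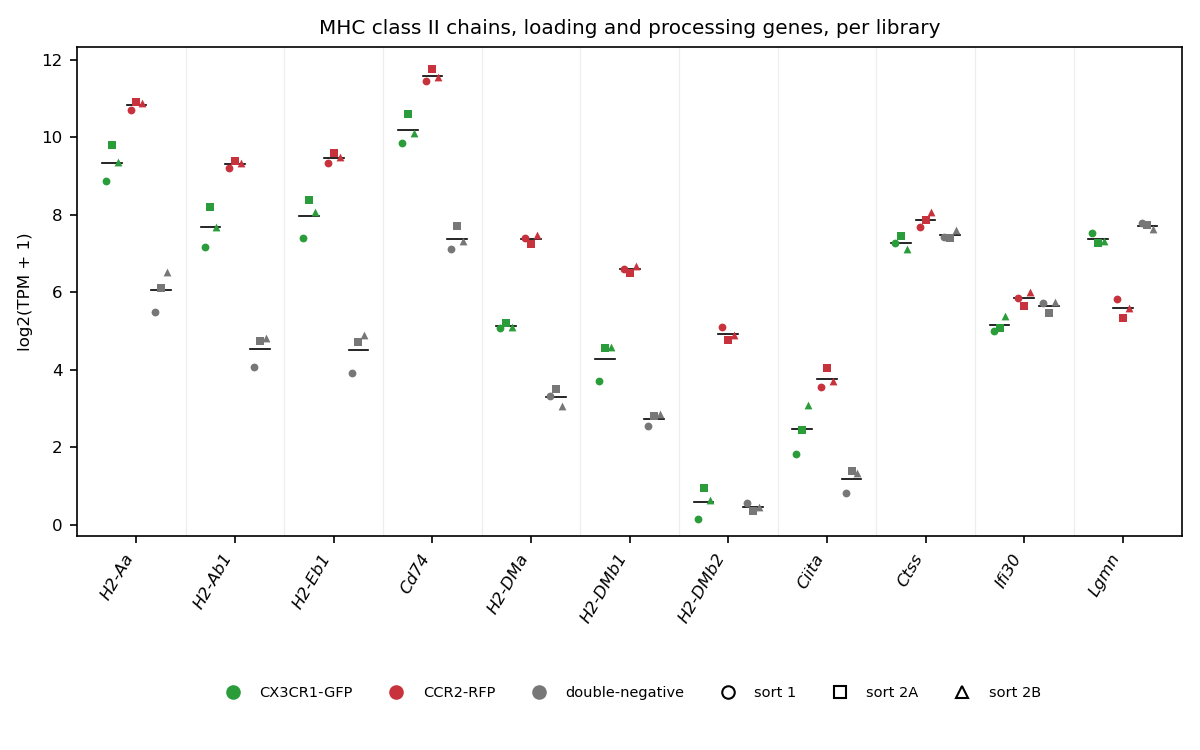
Log2(TPM + 1) of MHC class II chain, loading and processing genes per library, with colour for population, marker for sort and a bar at the mean of 3. The mean of the red CCR2-RFP points is highest for every gene but Lgmn, and for H2-DMb2 the green CX3CR1-GFP points lie with the grey double-negative points.

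Of 14 MHC class I presentation genes 0 were higher in CX3CR1-GFP cells and 6 were lower, among them the class I chain H2-D1 (-0.74 ± 0.11) and the immunoproteasome subunits Psmb8 (-1.28 ± 0.21), Psmb9 (-1.17 ± 0.26) and Psmb10 (-1.12). H2-K1 (-0.11) and B2m (0.14) did not pass. With quantile normalization 2 were higher and 3 lower, and H2-D1 was no longer called. Psmb9 was not called without the sort 2A libraries. In costimulation and checkpoint genes 1 of 9 was higher and 4 were lower, and 2 were higher and 2 lower without dominant rows and with quantile normalization. Cd86 was 45.1, 37.8 and 49.9 TPM in CX3CR1-GFP and 22.1, 17.4 and 25.6 TPM in CCR2-RFP libraries (1.0 ± 0.18, adjusted p = 0.00204), while its relative Cd80 was 7.54, 8.97 and 7.03 TPM against 13.6, 19 and 13.9 TPM (-0.89 ± 0.18, adjusted p = 0.00469). These 2 ligands of CD28 therefore differed in opposite directions. Cd200r1, an inhibitory receptor, was lower in CX3CR1-GFP cells (-2.30 ± 0.20).

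Dendritic cell identity genes were mostly higher in CCR2-RFP cells, with 2 of 14 higher in CX3CR1-GFP cells, 9 lower and a median of -1.30. Cd24a was 3.48, 6.31 and 2.95 TPM against 77, 89 and 80.1 TPM (-4.03 ± 0.28), Itgax, which encodes CD11c, 0.312, 0.168 and 1.35 TPM against 8.31, 8.58 and 9.34 TPM (-2.67 ± 0.26), and Cd209a, or DC-SIGN, 5.30, 7.51 and 6.95 TPM against 79.2, 121 and 79.4 TPM (-3.62 ± 0.35). All 3 separated the populations, as did nearly every named gene called. Batf3 (-1.91), Irf4 (-1.37) and Flt3 (-1.22) were lower in CX3CR1-GFP cells as well, as were Clec9a (-2.58) and Xcr1 (-1.20), markers of conventional type 1 dendritic cells. The 2 higher genes were Irf8 (1.91 ± 0.25) and Kmo (0.79), and Zbtb46 did not pass (0.02). Ccr7 and Fscn1 were too low to test. Both populations were gated on CD11b, which type 1 dendritic cells carry at a low level or not at all, and the part of dendritic cells in these values was not tested.

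Resident macrophage genes stood on the other side: 22 of 29 tested were higher in CX3CR1-GFP cells, 0 were lower and 7 did not pass, with a median of 1.47, and these counts were the same in all 3 other scalings. At an unadjusted p below 0.05, limma gave 23 higher and 0 lower, and 0 genes on the side without calls in the class I, ribosomal protein, respiratory chain, cell cycle and actin lists described here. Maf, a transcription factor of resident macrophages, was 171, 185 and 146 TPM against 37.7, 25.4 and 30.6 TPM (2.40 ± 0.17, adjusted p = 7.61e-06). Csf1r, the receptor for the survival factors CSF1 and IL-34, was 202, 212 and 198 TPM against 67.7, 61.2 and 61.2 TPM (1.67 ± 0.14, adjusted p = 2.03e-05). Slco2b1, an organic anion transporter, was 32.2, 29.8 and 30 TPM against 3.30, 2.08 and 2.92 TPM (3.09 ± 0.17, adjusted p = 2.57e-06). The double-negative libraries were at the CX3CR1-GFP level for each, at 149.8 to 177, 174 to 229 and 22.3 to 26.9 TPM. Fcgr1 (3.04), Siglec1 (2.28), Cbr2 (2.28), Mrc1 (1.39) and Mertk (1.43) were among the others. Timd4, a phosphatidylserine receptor of long-lived macrophages, was 11.5, 8.39 and 7.60 TPM against 4.22, 1.22 and 3.31 TPM, and higher still, at 26.1, 26.1 and 23.9 TPM, in double-negative libraries. Lyve1 (0.30), Vsig4 (0.77) and Cd68 (0.08) did not pass. Without the sort 2A libraries 21 were higher and 2 lower.

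Of 16 genes of CX3CR1-expressing macrophages and microglia, 10 were higher in CX3CR1-GFP cells and 2 were lower. Olfml3 (2.15), Aif1 (2.14), Tgfbr1 (2.38 ± 0.31) and Tgfbr2 (1.81 ± 0.22) were higher beside Gpr34 and Siglech. Fcrls, an Fc receptor-like gene known from microglia, went the other way, at 38.9, 40.3 and 34.5 TPM in CX3CR1-GFP and 127, 136 and 154 TPM in CCR2-RFP libraries (-1.85 ± 0.16, adjusted p = 2.53e-05). Tmem119, Sall1 and Sall3 were too low to test. In genes of large peritoneal cavity macrophages 1 of 13 was higher (Timd4) and 2 were lower, F10 (-1.54) and F5 (-1.23), both coagulation factors, shares near those over all genes tested. Without the sort 2A libraries 2 of 11 were higher and 0 lower, and the median turned from -0.41 to 0.67. Gata6, which defines cavity macrophages, was too low to test.

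Of 16 monocyte genes tested limma called 0 higher in CX3CR1-GFP cells (1 at an unadjusted p below 0.05) and 8 lower (median -0.87). Beside Lyz1, Ear2 and Fn1 these were S100a4 (39.3, 17.3 and 27.3 TPM against 271, 202 and 248 TPM, -3.12 ± 0.27), S100a10 (50.3, 35.7 and 38.5 TPM against 241, 162 and 191 TPM, -2.22 ± 0.22), S100a6 (-2.83), Lyz2 (-0.97) and Nr4a1 (-0.83). Ly6c2, Vcan and Chil3, which mark classical blood monocytes, were too low to test in these libraries. S100a8 (0.92) and S100a9 (1.75) did not pass, and summed neutrophil markers were 3.33 to 24.5 TPM in CX3CR1-GFP and 1.36 to 3.0 TPM in CCR2-RFP libraries.

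**Figure D5:**
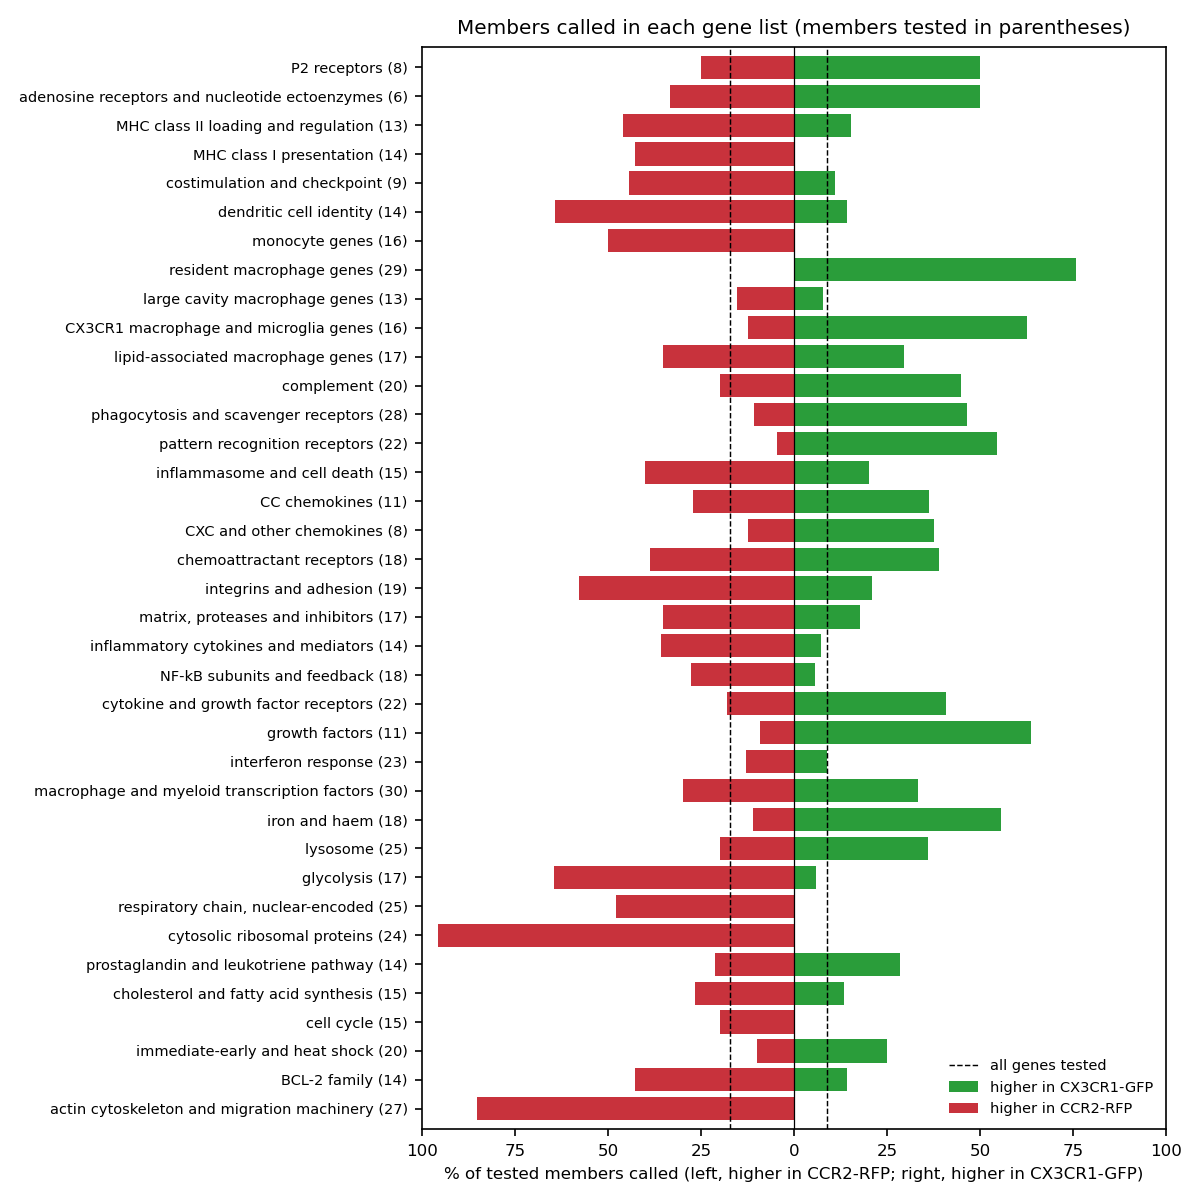
Percentage of tested members called higher in CX3CR1-GFP (green, right) and higher in CCR2-RFP cells (red, left) in each gene list, with the number tested in parentheses and dashed lines at the percentages over all genes tested (8.96 and 17.3). Resident macrophage genes lie to the right (22 of 29), and ribosomal protein genes (23 of 24) and actin and migration genes (23 of 27) to the left.

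The lists of uptake and recognition genes held more members higher than lower in CX3CR1-GFP cells. In complement, 9 of 20 were higher and 4 lower. C1qa, of the recognition molecule C1q, was 125, 128 and 104 TPM against 43.1, 42 and 38 TPM (1.51 ± 0.13), and C1qc was 246, 224 and 198 TPM against 78, 67.8 and 77.6 TPM (1.57 ± 0.13). Double-negative libraries held more C1qc than either, at 337, 352 and 321 TPM. The receptors C3ar1 (1.83 ± 0.16) and C5ar1 (2.01) were higher too. The lower genes were the integrin chains of complement receptors, Itgb2 (-1.72 ± 0.14), Itgax and Itgam, and properdin, Cfp (-2.0).

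Of 28 phagocytosis and scavenger receptor genes 13 were higher and 3 lower. Itgb5, the beta chain of an integrin that binds apoptotic cells through MFG-E8, was 7.90, 11.9 and 7.87 TPM against 0.212, 0.404 and 0.0932 TPM (3.03 ± 0.21), and 1.87, 1.85 and 2.07 TPM in double-negative libraries, so CX3CR1-GFP cells were the highest. Colec12, a scavenger collectin, was 28, 19.2 and 20.1 TPM against 3.38, 1.64 and 1.43 TPM (2.93 ± 0.23). Double-negative libraries held more Colec12 than either, at 56.5, 56.5 and 54 TPM. Msr1 (1.89), Cd36 (1.76), Axl (1.89) and the bridging ligand Gas6 (2.11 ± 0.25) were also higher. The 3 lower were the lectins Cd209a, Cd209d (-2.26) and Cd209g (-1.01), near copies whose reads may be divided. In each other scaling 2 genes of the list were lower.

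Pattern recognition receptors were higher in 12 of 22 and lower in 1. Tlr7, the endosomal sensor of single-stranded RNA, was 35.7, 35.3 and 34 TPM against 6.73, 4.37 and 5.11 TPM (2.51 ± 0.16, adjusted p = 5.5e-06). Tlr13, a sensor of bacterial ribosomal RNA, was 9.88, 10.7 and 8.29 TPM against 0.971, 1.02 and 0.605 TPM (2.51 ± 0.20), and Tlr5, the flagellin receptor, 9.97, 10.9 and 11.7 TPM against 1.99, 1.36 and 1.90 TPM (2.12 ± 0.19). Tlr1, Tlr2, Tlr4, Tlr8 and Tlr9 were higher by 1.18, 1.26, 0.54, 0.74 and 0.73. The lower gene was Clec4e, or Mincle (-2.76). Inflammasome genes were divided, with 3 of 15 higher and 6 lower, and 3 higher and 3 lower without dominant rows. The sensors Nlrc4 (1.27 ± 0.19) and Nlrp3 (1.28) were higher, while the adaptor Pycard (-2.16 ± 0.38), Mefv (-1.72 ± 0.25) and the products Il18 (-1.23) and Il1b were lower. Il1b was 35, 98.5 and 35.8 TPM against 191, 265 and 225 TPM, highest among CX3CR1-GFP libraries in sort 2A (-2.15 ± 0.36, adjusted p = 0.00156). Casp1 did not pass (-0.25).

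Chemokine genes differed in both directions. Of 11 CC chemokines 4 were higher and 3 lower, and 6 higher and 3 lower under each other scaling. Ccl3, a ligand of CCR1, was 146, 209.5 and 66.8 TPM against 24.5, 14.2 and 19.3 TPM (2.69 ± 0.39, adjusted p = 0.000669), and 29.3, 28.7 and 15.7 TPM in double-negative libraries. Ccl7, like Ccl12 a ligand of CCR2, was higher (1.72), and Ccl2 did not pass (0.88). Ccl6 was 146, 101 and 199.6 TPM against 1031, 904 and 1169 TPM (-2.83 ± 0.24) and Ccl9 111, 86.1 and 113 TPM against 373, 386 and 411 TPM (-1.92 ± 0.16), so these abundant ligands of CCR1 were lower in CX3CR1-GFP cells. Ccl17 was lower too (-1.30). Among CXC chemokines Pf4, platelet factor 4, was 334, 449 and 324 TPM against 111, 56.5 and 103 TPM (2.07 ± 0.24). Cxcl16 (1.95) was higher, though not at a pseudocount of 0.1, and the calls of Ppbp and Cxcl10 were lost in several settings.

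Of 18 chemoattractant receptors 7 were higher and 7 lower, with 8 higher and 4 lower without dominant rows and with quantile normalization, and 6 higher and 3 lower of 15 without the sort 2A libraries. Beside C3ar1, C5ar1 and the gated Cx3cr1, the higher genes were Gpr183, an oxysterol receptor (2.70), S1pr1, which guides exit from tissue (1.95), Cmklr1 (1.10) and Ptger4 (1.03). Beside the gated Ccr2, the lower genes included Ltb4r1, Ptger2 (-2.15 ± 0.20), Ccrl2 (-1.92), Ptafr (-0.66) and Cysltr1 (-0.55).

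Most genes of cell movement were higher in CCR2-RFP cells. Of 27 actin and migration genes 0 were higher in CX3CR1-GFP cells and 23 were lower (median -1.14), and 22, 19 and 18 were lower with median-of-ratios scaling, without dominant rows and with quantile normalization. Anxa2, annexin A2, was 19.6, 16.7 and 16.7 TPM against 159, 129 and 133 TPM (-2.92 ± 0.14, adjusted p = 2.57e-06). Lsp1, an actin-binding protein of leukocytes, was 23, 13.3 and 25.7 TPM against 179.6, 191 and 185 TPM (-3.15 ± 0.24), and Rac2, a haematopoietic small GTPase, 10.1, 6.49 and 10.5 TPM against 46.8, 42.7 and 61 TPM (-2.36 ± 0.20). Coro1a (-1.68), Pfn1 (-1.41), Cfl1 (-1.14) and Vim (-1.92) were lower as well. In integrins and adhesion 4 of 19 were higher and 11 lower. Cd44 was 25.6, 28 and 21.7 TPM against 111, 117 and 103 TPM (-2.10 ± 0.15) and Alcam 3.70, 6.03 and 5.47 TPM against 41, 46.7 and 39.1 TPM (-2.85 ± 0.20). The 4 higher were Itgb5, Itga9 (2.25), Itga6 (2.06) and Vcam1 (1.59).

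In matrix, proteases and inhibitors 3 of 17 were higher and 6 lower, and 1 was higher and 4 lower without the sort 2A libraries. Mmp13, a collagenase, was 5.04, 17.6 and 7.24 TPM against 0.0409, 0 and 0.114 TPM (3.21 ± 0.35), and 0.240, 0.542 and 0.401 TPM in double-negative libraries, so it was near the floor outside CX3CR1-GFP cells. Mmp19 was 1.40, 1.22 and 4.24 TPM against 35.4, 35.7 and 35.6 TPM (-3.59 ± 0.29), Adam8 0.374, 0.867 and 0.660 TPM against 14, 14.4 and 13.3 TPM (-3.20 ± 0.20), and Plaur, the urokinase receptor, 2.45, 2.66 and 2.27 TPM against 18.4, 19.9 and 27.9 TPM (-2.72 ± 0.19). These were all higher in CCR2-RFP cells. Summed fibroblast markers were 52.7 to 138 TPM in CX3CR1-GFP and 14.8 to 63.6 TPM in CCR2-RFP libraries (exact permutation test, 2-sided p = 0.2), and their part in the Mmp13 value was not tested.

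Of 14 inflammatory mediators 1 was higher in CX3CR1-GFP cells and 5 were lower. In each other scaling 2 were higher and 4 lower, and without the sort 2A libraries 0 were higher and 7 lower. The higher gene was Il10 (1.34 ± 0.41), and Tnf did not pass (0.65). Il1rn, the IL-1 receptor antagonist, was 3.09, 0.0851 and 1.71 TPM against 30.9, 29.7 and 35.3 TPM (-3.84 ± 0.43), so the cytokine Il1b and its antagonist were both higher in CCR2-RFP cells, with Il6, Il18 and Retnla. Among 18 NF-kB subunits and feedback genes 1 was higher and 5 lower, not far from the shares over all genes tested (8.96% and 17.3%). Beside Tnip3 the lower genes were Traf1 (-1.55 ± 0.24), Zc3h12a (-1.57 ± 0.25), Icam1 (-0.74) and Tnfaip3 (-0.80). Tnfaip3 was not called without dominant rows or with quantile normalization, which each left 3 lower. Without the sort 2A libraries, and with the sort as a replicate block, 0 were higher and 4 lower. The subunits Rela, Rel, Relb, Nfkb1 and Nfkb2 did not pass.

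Cytokine and growth factor receptors were higher in 9 of 22 and lower in 4. The lower count was 2 in each other scaling, with 11 or 12 higher, and 6 of 21 were higher and 2 lower without the sort 2A libraries. Csf2ra (-1.74 ± 0.23) and Csf2rb (-0.98), the chains of the GM-CSF receptor, were lower in CX3CR1-GFP cells, whereas Csf1r was higher. Of 11 growth factors 7 were higher, among them Gas6, Bmp2 (7.33, 11 and 6.38 TPM against 1.26, 1.06 and 0.246 TPM, 2.33 ± 0.28), Igf1 (1.65) and Hgf (1.28). Areg, amphiregulin, was the gene lower in that list, at 0.364, 0 and 0.366 TPM against 16.3, 10.6 and 15.6 TPM (-3.60 ± 0.31). Interferon response genes were near the background, with 2 of 23 higher and 3 lower. Ifitm3 was 107, 111 and 139 TPM against 294, 296 and 319 TPM (-1.35 ± 0.13), and Oasl2 was higher (1.18 ± 0.21).

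P2 receptors, which sense nucleotides outside the cell, are named in the title of the series. Of 15 listed, 8 could be tested, and 4 were higher in CX3CR1-GFP cells, 2 lower and 2 not called. P2ry12, the ADP receptor of microglia and platelets, was 28.8, 28.4 and 30 TPM against 4.81, 2.26 and 4.19 TPM (2.70 ± 0.21, adjusted p = 1.38e-05). P2ry13, also an ADP receptor, was 19.5, 14 and 14.7 TPM against 2.09, 0.0452 and 1.05 TPM (3.17 ± 0.34), P2ry6, the UDP receptor, 27.4, 32.5 and 25.5 TPM against 6.53, 4.55 and 7.38 TPM (2.05 ± 0.20), and P2rx7, the ATP-gated channel, 38.8, 23 and 33.9 TPM against 9.63, 6.81 and 8.17 TPM (1.82 ± 0.21). Double-negative libraries held 31.3 to 34.6, 16.6 to 22, 24.6 to 32.7 and 33.6 to 39.1 TPM of these 4, above every CCR2-RFP library. P2ry1, a further ADP receptor, was 0.298, 0.121 and 0.207 TPM against 4.97, 5.42 and 6.61 TPM (-2.46 ± 0.21), and P2ry10 0.153, 0.291 and 0.324 TPM against 4.91, 5.67 and 3.57 TPM (-2.17 ± 0.20). Of the 3 ADP receptors, P2ry12 and P2ry13 thus had the higher level in CX3CR1-GFP and P2ry1 in CCR2-RFP cells. P2ry1 and P2ry10 pass the filter on low values through the CCR2-RFP libraries alone, so the 2 lower calls had their direction set by it. Neither gene could be tested when any of those libraries was left out. P2rx4 was 17.6, 23 and 19.8 TPM against 17.5, 19.7 and 21.2 TPM (0.04 ± 0.15, adjusted p = 0.871), and its libraries overlapped.

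Adenosine receptors and nucleotide ectoenzymes were higher in 3 of 6 and lower in 2. Adora2b, the low-affinity adenosine receptor, was 0.0947, 0.272 and 0.752 TPM against 7.33, 6.83 and 11.4 TPM (-2.79 ± 0.26), and Adora3 was 0.0899, 0.429 and 0.169 TPM against 2.04, 1.09 and 2.08 TPM. Cd38, which consumes NAD, was 7.35, 5.48 and 8.80 TPM against 2.30, 1.03 and 1.01 TPM (1.76 ± 0.25). Double-negative libraries held more Cd38 than either, at 17.3, 23.1 and 17.6 TPM. Enpp1 (1.0) and Entpd1, or CD39 (0.60 ± 0.15), were higher, and Entpd1 was not called without CX3CR1-GFP 1, CCR2-RFP 1 or CCR2-RFP 2B. Nt5e was too low to test.

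Of 30 transcription factors 10 were higher and 9 lower. Mef2c was 59.4, 67.6 and 64.2 TPM against 16, 21.7 and 17 TPM (1.76 ± 0.15) and Tcf4 69, 52.2 and 51.5 TPM against 15.3, 19.6 and 14 TPM (1.76 ± 0.17). Bhlhe41 (2.96) was higher, whereas the related Bhlhe40 was lower (-2.35). Id2, an inhibitor of E proteins such as TCF4, was 9.87, 13.7 and 7.38 TPM against 68.3, 67.3 and 83 TPM (-2.74 ± 0.20, adjusted p = 1.15e-05). Tcf4 and Id2 thus differed in opposite directions. Spi1 (-0.43), Cebpa (-0.31) and Zeb2 (-0.18) did not pass. Tcf4 and Siglech are also known from plasmacytoid dendritic cells, whose list summed to 82.7 to 112 TPM in CX3CR1-GFP and 21.0 to 30.4 TPM in CCR2-RFP libraries. Bst2 of that list did not pass (-0.41), Ccr9, Klk1 and Ly6d were too low to test, and double-negative libraries summed to 91.3 to 121 TPM.

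Iron and haem genes were higher in 10 of 18 and lower in 2. Slc40a1, the iron exporter ferroportin, was 12, 10.4 and 13 TPM against 1.10, 0.414 and 1.96 TPM (2.63 ± 0.26), and Spic, a factor of iron-recycling macrophages, 4.93, 6.18 and 3.42 TPM against 0.108, 0.237 and 0.145 TPM (2.30 ± 0.23). Double-negative libraries held more Slc40a1 than either, at 33.8, 24.6 and 33 TPM. Hmox1 (0.25) and Fth1 (0.13) did not pass, and without the sort 2A libraries 5 of 17 were higher. Lysosome genes were higher in 9 of 25 and lower in 5, and lower in 2, 1 and 1 with median-of-ratios scaling, without dominant rows and with quantile normalization. Cd63 was 71.3, 84.4 and 71.8 TPM against 15.8, 5.65 and 8.84 TPM (2.89 ± 0.28) and Ctsc 341, 370.4 and 329.5 TPM against 169, 154 and 176 TPM (1.06 ± 0.12), while Psap, prosaposin, was 182, 193 and 189 TPM against 414, 428 and 449 TPM (-1.19 ± 0.11).

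Lipid genes moved in both directions, with 5 of 17 lipid-associated macrophage genes higher and 6 lower. Apoe, apolipoprotein E, was 1413, 1185 and 1629 TPM against 376, 233 and 275 TPM (2.27 ± 0.19), and Lpl, lipoprotein lipase, 24.6, 46.1 and 25.3 TPM against 321, 316 and 338 TPM (-3.36 ± 0.25). The cholesterol exporters Abca1 and Abcg1 were 16.1, 13.6 and 12.8 TPM against 3.90, 3.64 and 3.14 TPM (1.73 ± 0.16) and 0.324, 0.584 and 0.499 TPM against 6.39, 6.07 and 8.91 TPM (-2.45 ± 0.21). In the prostaglandin and leukotriene pathway 4 of 14 were higher and 3 lower. Hpgd, which inactivates prostaglandins, was 96.3, 86.3 and 87 TPM against 12.6, 9.48 and 10.3 TPM (2.95 ± 0.14, adjusted p = 2.57e-06), and Hpgds, which makes prostaglandin D2, 24.3, 22.2 and 18.8 TPM against 2.71, 0.567 and 1.84 TPM (3.15 ± 0.28). The leukotriene genes Alox5ap (-1.49 ± 0.15) and Lta4h (-1.19) were lower, and Alox5 higher (0.78). In cholesterol and fatty acid synthesis 2 of 15 were higher, among them Scd1 (1.08), and 4 lower, or 2 lower without dominant rows or without the sort 2A libraries. For a list of this size these counts are not far from the shares over all genes tested (8.96% higher and 17.3% lower).

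Many genes of translation and energy metabolism were higher in CCR2-RFP cells, by amounts that depend on scaling. The scaling without dominant rows leaves ribosomal protein and mitochondrial mRNA rows out of its total. Of 24 cytosolic ribosomal protein genes 23 were lower in CX3CR1-GFP cells (median -1.04), and 21, 18 and 17 were lower with median-of-ratios scaling, without dominant rows and with quantile normalization. Rpl4 was 89, 99.1 and 76.8 TPM against 245, 237 and 255 TPM (-1.47 ± 0.14). Of 25 nuclear-encoded respiratory chain genes 12 were lower (median -0.61), and 9, 2 and 3 in those scalings. Mitochondrially encoded mRNA summed to 13745, 15396 and 8914 TPM in CX3CR1-GFP and 7491, 10259 and 10096 TPM in CCR2-RFP libraries, which overlapped, and limma called 0 of 6 such genes (2 higher at an unadjusted p below 0.05, and 2, 4 and 6 called higher in those scalings).

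Of 17 glycolysis genes 1 was higher and 11 were lower (median -1.04), and 10, 6 and 7 were lower in the same scalings. Eno1, enolase 1, was 17.4, 13.5 and 20.6 TPM against 69.8, 70.3 and 67.3 TPM (-1.97 ± 0.16), Pfkp 2.97, 3.22 and 2.53 TPM against 12.3, 11.3 and 15.2 TPM (-1.83 ± 0.20), and Slc16a3, the lactate exporter MCT4, 0.869, 1.30 and 0.759 TPM against 8.18, 6.45 and 7.79 TPM (-2.10 ± 0.24). Skeletal muscle mRNA, which carries glycolytic enzymes of its own, summed to 266, 1595 and 190 TPM in CX3CR1-GFP and 42.9, 949 and 41.0 TPM in CCR2-RFP libraries, summed over 8 markers. It was highest in sort 2A in both populations, and higher in CX3CR1-GFP cells within each sort. With all libraries limma called 0 of the 8 (0 at an unadjusted p below 0.05), and 7 were called higher without the sort 2A libraries. Without those libraries 10 of 16 glycolysis genes were lower. Leaving them out did not remove the muscle difference, and the part of muscle mRNA in these counts was not tested.

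Of 20 immediate-early and heat shock genes 5 were higher and 2 lower, and 6, 9 and 11 were higher and 1, 0 and 0 lower with median-of-ratios scaling, without dominant rows and with quantile normalization. The replicate block gave 6 higher and 4 lower. Jun was 313, 289 and 231 TPM against 109, 82.4 and 92.7 TPM (1.54 ± 0.18), Egr1 269, 239 and 264 TPM against 137, 80.3 and 123 TPM (1.21 ± 0.21) and Ier3 74.5, 52.1 and 46.6 TPM against 18.2, 12.2 and 14.4 TPM (1.87 ± 0.22). Such genes are known to respond to digestion of tissue, which both populations went through, and its part in these values was not tested. In the BCL-2 family 2 of 14 were higher, Bcl2 (1.41) and Bcl2l1 (1.24), which protect cells, and 6 were lower. Bcl2a1d was 3.42, 7.24 and 7.23 TPM against 35, 35 and 31.8 TPM (-2.38 ± 0.24), of a family of near copies that also protect, and Bak1 (-2.25 ± 0.25) and Pmaip1 (-2.15 ± 0.20), which promote death, were lower too. Of 15 cell cycle genes 0 were higher and 3 lower, near the share over all genes tested, and 5 were lower with the replicate block and 0 called without the sort 2A libraries. Mki67 was 1.42, 1.37 and 4.86 TPM against 4.82, 7.72 and 7.91 TPM, with overlapping libraries.

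Markers of other cells were present at unequal levels. Of these sums that of skeletal muscle was the highest in each CX3CR1-GFP library, with the myosin gene Myh4 at 101, 589.7 and 56.9 TPM in CX3CR1-GFP and 15.7, 318 and 12.8 TPM in CCR2-RFP libraries. Adipocyte markers summed to 27.3 to 95.5 and 8.60 to 69.5 TPM and Schwann cell and nerve markers to 43.5 to 102 and 41.5 to 60.3 TPM in the same order. Limma called 0 of 3 adipocyte genes (0 at an unadjusted p below 0.05), and 2 of 2 higher without the sort 2A libraries. B cell markers summed to 42.1 to 57.4 TPM in CX3CR1-GFP and 14.1 to 14.2 TPM in CCR2-RFP libraries, mostly through Ighm (53.5, 41.6 and 40.3 TPM against 13.5, 14.1 and 13.5 TPM, 1.64 ± 0.18). Double-negative libraries summed to 48.1 to 70.2 TPM, with Ighm at 70.1, 47.5 and 66 TPM. Cd79b, of the B cell receptor, was 3.54, 2.60 and 1.44 TPM against 0.332, 0 and 0.567 TPM (1.42 ± 0.28), and 0.0792, 0.216 and 0.597 TPM in double-negative libraries. Both tested members were thus higher in CX3CR1-GFP than in CCR2-RFP cells. Ms4a1, Cd79a, Pax5 and Cd22 were too low to test. Mast cell markers summed to 0.345 to 4.53 TPM against 6.97 to 35.1 TPM, and the calls of Mcpt4 and Cpa3 were lost without sort 2A. Mesothelial markers (1.06 to 7.20 and 1.05 to 1.67 TPM), endothelial markers (2.54 to 9.08 and 1.20 to 3.76 TPM) and eosinophil markers (0.125 to 0.486 and 0.514 to 1.70 TPM) were near the floor. No difference in these sums can reach p below 0.1 with 3 libraries against 3, and their part in the gene differences was not tested.

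Double-negative cells, sorted as negative for MHC class II and both reporters, gave a further level for each gene. Their mean lay nearer to CX3CR1-GFP than to CCR2-RFP cells for 748 of the 908 genes higher in CX3CR1-GFP cells (82.4%) and for 1450 of the 1758 lower genes (82.5%), and for 6538 of all 10136 genes tested (64.5%). The double-negative mean was above both reporter populations for 407 of the higher genes and below both for 549 of the lower genes. Over all genes tested it was above both for 2753 and below both for 3033. These counts are a description over the same libraries, with no test. Cd93 (16.1, 25.1 and 12.2 TPM) and Lair1 (10.7, 13.4 and 10.8 TPM) were intermediate in double-negative libraries, whereas Maf, Stab1 and P2ry12 were at the CX3CR1-GFP level.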

How the data were processed

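RNA from sorted peritoneal wall phagocytes was measured in 9 libraries (3 per population), using a low-input kit (1 ng RNA), and read as pairs of 75 bases, per the labels' protocols. The deposited values are TPM per gene symbol, made by the authors with bcl2fastq 2.18, cutadapt 1.8.3 and Salmon 0.11.3 on mm10, per the submitters' processing notes. How transcripts were summed to genes, on which annotation and strand, is not given in the sources used, so overlapping or antisense genes and near copies are uncertain. TPM keeps no counts: depth is unknown, and the number of libraries sets the precision.

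Libraries were grouped by column heading. Genes reaching 1 TPM in 3 or more libraries were kept, and log2(TPM + 1) was fitted in limma 3.58.1 (R 4.3.3), with a mean per population over all 9 libraries and eBayes with trend. CX3CR1-GFP minus CCR2-RFP was tested 2-sided, adjusted over all genes by Benjamini-Hochberg, and called at adjusted p below 0.05. The procedure was tested on simulated data. Coordinates are from GENCODE M21 (GRCm38, 1-based). Sums per library were compared by exact permutation.

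Members and the 51 gene lists (791 genes in the table, 620 tested) were chosen with earlier results of these data known. Lists are described by counts and medians beside those over all genes. The rule named all gate genes and P2 receptors, the 12 largest differences each way (called, a mean of 10 TPM or more in the higher population, no overlap, no predicted, ribosomal protein, pseudogene or small RNA entries), and up to 4 called members per list by p (up to 2 by level where none was called). Other list members are given as log2 differences. Not every gene the rule named is reported. Sort labels were read as animals from the design text, an inference. Deviations of same-sort CX3CR1-GFP and CCR2-RFP libraries from their population means correlated at 0.0689 to 0.2051, and of other sorts at -0.1601 to 0.1122. Alternatives were pseudocounts 0.1 and 5, no filter, a filter at 5 TPM, 3 scalings, the sort as a replicate block, 2 populations only, no trend, each library left out and, added after seeing the data, sort 2A left out.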

Additional observations from a re-analysis of the deposited data

How the results depend on the processing

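Against 2666 calls (908 higher in CX3CR1-GFP cells, 1758 lower) with all libraries, leaving out each library in turn gave 1840 to 2548 calls in all, 667 to 863 higher and 1173 to 1685 lower, the lowest of each without CCR2-RFP 2B. Without the 3 sort 2A libraries, a setting chosen after seeing the data, 1767 were called, 630 higher and 1137 lower. A threshold of at least 2-fold left 1514 (530 and 984), and the filter at 5 TPM left 578 higher. Without dominant rows 1437 were higher and 1047 lower, and with quantile normalization 1158 were lower. The fit with the sort label as a replicate block called 926 higher and 1740 lower (2666 in all); the pairing of sorts rests on the labels and a weak correlation of deviations. Of 163 named genes called, 142 were called in each of the 20 alternatives in which they could be tested and 21 were lost in at least 1, most often with no filter (10) or quantile normalization (10), and none turned direction. Of 2040 counts of list members under the alternatives 1828 stayed within 1.5 times the main count and 212 did not. The causes of these changes were not tested, apart from settings that test fewer genes or use fewer libraries. A count test could not be run on TPM, and no interval for counting error can be given.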

Other observations

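Several genes outside the lists also separated the populations, and were chosen after their values were seen. Pilra, an inhibitory paired immunoglobulin-like receptor, was 1.05, 0.534 and 1.01 TPM in CX3CR1-GFP and 36, 29.2 and 36.9 TPM in CCR2-RFP libraries (log2 difference -4.24 ± 0.23, limma adjusted p = 2.57e-06). Aldh1a2, which makes retinoic acid, was 0.0649, 0.612 and 0.390 TPM against 23.1, 22.9 and 23.9 TPM (-4.18 ± 0.22, adjusted p = 2.57e-06). Cd52, a small surface glycoprotein of leukocytes, was 11, 28.6 and 18.2 TPM against 179, 173 and 180.3 TPM (-3.23 ± 0.40, adjusted p = 0.000238). Each was higher in all 3 CCR2-RFP libraries than in any CX3CR1-GFP library.

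Members of the MS4A family of membrane proteins differed in both directions. Beside Ms4a7, Ms4a6b was 50.3, 57.2 and 51.9 TPM against 7.81, 3.85 and 5.65 TPM (3.04 ± 0.22, adjusted p = 1.07e-05) and Ms4a6d was 42.7, 34.4 and 39.5 TPM against 10.2, 5.83 and 7.32 TPM (2.21 ± 0.19, adjusted p = 2.65e-05), both higher in CX3CR1-GFP cells. Ms4a8a was 0.425, 1.13 and 2.97 TPM against 26.1, 24.7 and 26.4 TPM (-3.55 ± 0.32, adjusted p = 3.32e-05) and so higher in CCR2-RFP cells. Cd300ld3, of the CD300 receptor cluster, was 181, 210.3 and 164 TPM against 33.3, 17.9 and 21.3 TPM (2.93 ± 0.22, adjusted p = 1.15e-05). Near copies in the MS4A and CD300 clusters may share reads.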
